A study of Mus musculus with 36 samples.

Results

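The genes described here are 46 genes of the mouse cell cycle and of DNA replication. They were taken by name, and every probe carrying a member's symbol was read. Of the members, 17 copy DNA or supply its nucleotides, 13 control the passage from G1 into S phase, and 16 act from S phase and G2 through mitosis. They are represented by 102 of the 45281 probes of the array, and 45 stood under their current symbol, while Cdk1 stood under the older name Cdc2a. A gene was tested where a probe was brighter than the median of its array on at least 3 arrays. This left 44 of the 46 members among 18936 genes, because the only probe of Ccnb2 (a B-type cyclin) and both probes of Bub1 (a spindle checkpoint kinase) were too dim. The mean log2 intensity of the Ccnb2 probe was 6.32, and those of the Bub1 probes were 6.44 and 6.22.

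Illumina bead arrays measured the messenger RNA of primary astrocytes from C57B/6 mouse pups of postnatal day 0 to 2, grown in serum-containing medium until about confluent. The labels give 36 arrays in 12 groups of 3. Cultures received vehicle, 100 nM corticosterone (the main glucocorticoid of rodents), 500 nM RU486 (mifepristone, an antagonist of the glucocorticoid receptor), or both, for 2, 4 or 6 h. The source label calls every culture cortical, while the growth protocol allows cortex or hippocampus. Nothing states whether arrays of a group are separate cultures, so the p-values describe array-to-array spread that could be technical. In such bulk samples, fewer cycling cells and less RNA per cell cannot be told apart.

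Before a cell can copy its DNA, D-type cyclins with Cdk4 or Cdk6, and then cyclin E with Cdk2, inactivate the retinoblastoma protein and release E2F transcription factors. E2F turns on the genes of the replication machinery, among them the Mcm2 to Mcm7 helicase, its loaders Cdc6 and Cdt1, and the ribonucleotide reductase subunits Rrm1 and Rrm2. Genes needed in G2 and mitosis, such as Ccnb1, Cdc20 and Plk1, are switched on later, through promoter elements named CHR and CCAAT. Astrocytes of newborn rodents divide in serum-containing culture until they become confluent, and glucocorticoids are known to slow the division of many cell types.

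Promoter sequences were looked up to show which of these elements lie at the members on which the results turn. The RefSeq table of build GRCm38.p6, which runs from 250 bases before to 50 bases after each gene's start, held 43 promoters of 37 members and 32851 promoters in all. The motifs searched on both strands were TTTCCCGC, TTTGGCGC, TTTCGCGC and TTTGCCGC for E2F, TTTGAA and TTCGAA for CHR, and CCAAT. Motifs could overlap. The next 5 promoters belong to members with clear differences between treatments, chosen after their values were seen, and capitals mark the matches, on either strand.
Mcm6 promoter (chr1:128359656-128359955, minus strand): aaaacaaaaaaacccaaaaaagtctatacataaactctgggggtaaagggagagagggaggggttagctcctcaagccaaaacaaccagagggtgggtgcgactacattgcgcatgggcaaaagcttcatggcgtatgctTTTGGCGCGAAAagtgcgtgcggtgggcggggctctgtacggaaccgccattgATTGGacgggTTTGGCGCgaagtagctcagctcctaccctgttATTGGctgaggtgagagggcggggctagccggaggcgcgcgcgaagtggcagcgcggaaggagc
Rrm1 promoter (chr7:102441445-102441744, plus strand): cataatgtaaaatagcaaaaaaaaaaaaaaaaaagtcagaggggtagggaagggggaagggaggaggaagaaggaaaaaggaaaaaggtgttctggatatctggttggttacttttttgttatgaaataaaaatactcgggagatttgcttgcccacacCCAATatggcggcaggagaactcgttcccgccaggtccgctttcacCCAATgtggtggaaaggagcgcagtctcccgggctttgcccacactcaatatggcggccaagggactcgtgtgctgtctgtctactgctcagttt
Mki67 promoter (chr7:135716330-135716629, minus strand): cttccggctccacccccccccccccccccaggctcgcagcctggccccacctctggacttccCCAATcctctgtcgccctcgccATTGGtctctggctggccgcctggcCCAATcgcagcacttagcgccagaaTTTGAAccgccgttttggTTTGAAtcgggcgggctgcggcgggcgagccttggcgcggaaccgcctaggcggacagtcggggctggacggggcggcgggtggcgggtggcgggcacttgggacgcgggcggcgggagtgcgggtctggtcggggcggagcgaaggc
Cdc20 promoter (chr4:118437294-118437593, minus strand): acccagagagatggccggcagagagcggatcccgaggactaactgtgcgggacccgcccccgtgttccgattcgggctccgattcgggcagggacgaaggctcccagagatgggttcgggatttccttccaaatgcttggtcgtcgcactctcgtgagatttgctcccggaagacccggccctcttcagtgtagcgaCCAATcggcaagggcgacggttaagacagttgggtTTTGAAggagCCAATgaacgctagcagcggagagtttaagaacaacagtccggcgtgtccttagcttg
Plk1 promoter (chr7:122159185-122159484, plus strand): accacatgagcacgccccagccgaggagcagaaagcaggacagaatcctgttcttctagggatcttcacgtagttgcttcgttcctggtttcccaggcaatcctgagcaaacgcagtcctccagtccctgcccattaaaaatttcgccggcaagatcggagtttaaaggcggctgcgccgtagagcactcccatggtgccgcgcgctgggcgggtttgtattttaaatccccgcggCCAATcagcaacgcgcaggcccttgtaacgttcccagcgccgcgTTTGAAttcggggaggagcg

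The Mcm6 promoter held 3 E2F matches, of which some on opposite strands overlap, and 2 CCAAT matches. Those of Mki67, Cdc20 and Plk1 held 2, 1 and 1 CHR matches, and that of Rrm1 held 2 CCAAT matches with neither of the others. Over the lists, an E2F match lay in 7 of 19 promoters of replication genes (36.8%), against 2.26% of all promoters in the table. A CHR match lay in 11 of 14 promoters of G2/M genes (78.6%), against 19.2% of all promoters. CCAAT was found in 12 of these 14 (85.7%), against 37.4% of all. The palindromic glucocorticoid response element was found in 0 of the 43 member promoters and in 0.475% of all. These are counts of letters in a short window and not of bound factors.

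Most members were well above the dim end of the array. Ccnd1, the cyclin that links growth signals to Cdk4 and Cdk6, was the brightest, with a mean log2 intensity of 14.01, brighter than 99.3% of the genes tested. The centromeric histone gene Cenpa followed with 12.64, and the helicase subunit gene Mcm4 with 12.42. The dimmest tested members were Ccna2 (cyclin A2) at 6.79, Myc (a growth-promoting transcription factor) at 7.02 and Cdkn1b (the Cdk inhibitor p27) at 7.11. Levels of different genes come from different probes and are not compared further. No background had been subtracted, so changes of such dim genes are understated.

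Among markers of the labelled cell type, 7 of 8 astrocyte markers passed the brightness filter, S100b being the exception. Slc1a3, Gja1, Gfap and Aqp4 had mean log2 intensities of 14.87, 13.70, 13.42 and 13.36, and Aldh1l1 had 10.91. Slc1a2 and Glul were dimmer, at 8.56 and 7.67. Some markers of other cells were bright too. The oligodendrocyte lineage gene Olig1 stood at 14.53, and the others of its list between 7.20 (its partner Olig2) and 10.04 (Pdgfra). The neuronal genes Map2 and Stmn2 stood at 12.11 and 11.72, and Syt1 and Tubb3 at 8.03 and 6.95. Microglial markers lay between 7.76 and 8.34, and fibroblast markers between 6.76 and 9.01. Endothelial markers lay between 6.65 and 7.02.

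Of the 36 arrays, 2 stood apart from the rest. The other 34 had a median correlation with all arrays of 0.96 to 0.99, against 0.757 for vehicle 6 h replicate 1 and 0.886 for corticosterone with RU486 6 h replicate 3. The members moved with these arrays. On vehicle 6 h replicate 1, 21 of the 44 tested members had their lowest value of all 36 arrays and 10 had their highest. The median absolute deviation of the members from their mean over the 34 arrays was 1.30 on that array, 0.60 on the other, and 0.10 to 0.40 on the rest. Results are therefore given with all arrays and, for the counts and the members described, without these 2.

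**Figure D1:**
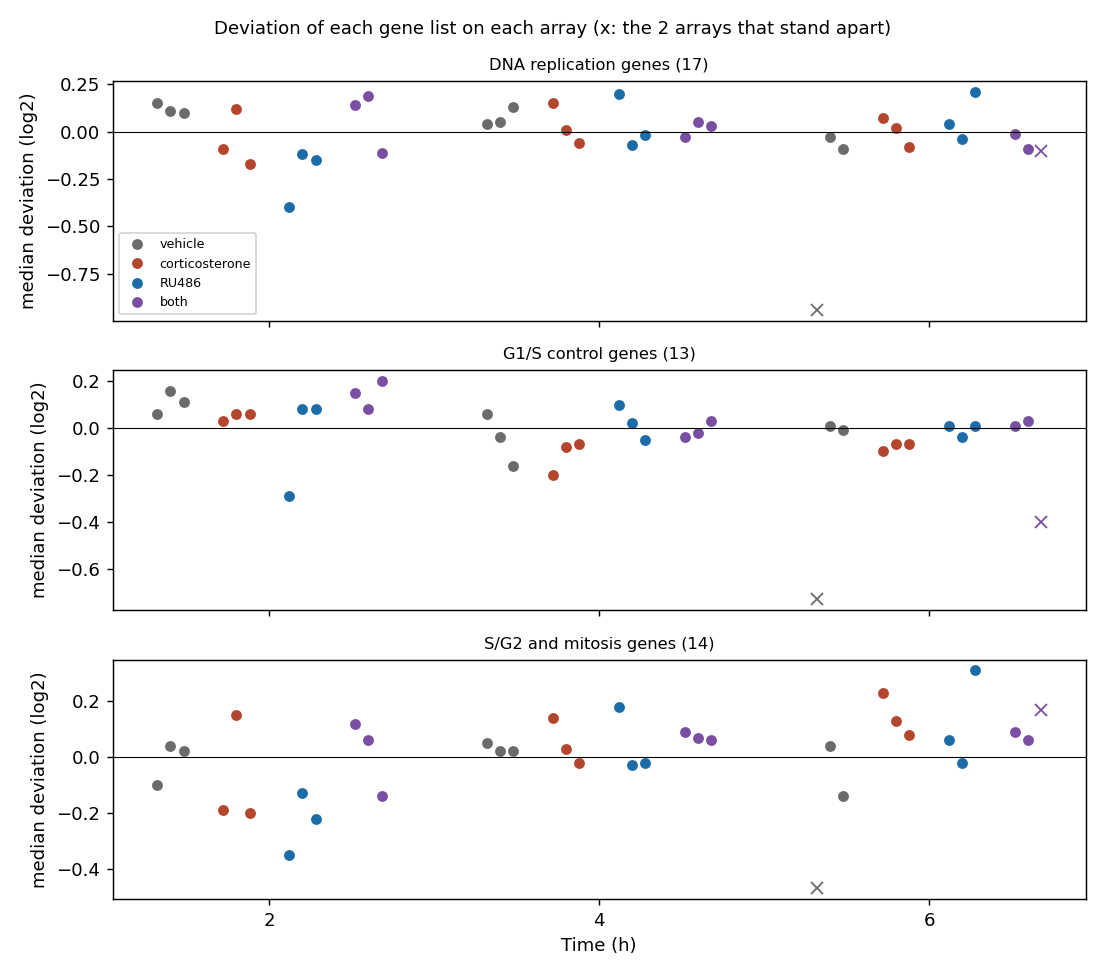
Median deviation of each gene list (log2 units, from each gene's mean over the 34 arrays) on each of the 36 arrays, by time and treatment. Vehicle 6 h replicate 1 lies at -0.94, -0.73 and -0.47 for the lists from top to bottom, and the 34 arrays marked by circles lie between -0.40 and 0.31.

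The plot of list medians by array shows the remaining arrays in a narrow band. Median deviations ran from -0.40 to 0.21 for the replication genes, from -0.29 to 0.20 for the G1/S control genes and from -0.35 to 0.31 for the G2/M genes. The low end of each band was RU486 2 h replicate 1. Members of a list also varied together within groups. Over the 34 arrays and with group means removed, the median correlation between members was 0.21 within the replication list, 0.30 within the G2/M list and 0.27 between these lists. It was 0.03 among the G1/S control genes and 0 between replication or G2/M genes and all other genes tested. These pairs share arrays and any noise of an array, and the values are descriptive.

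The first comparison asks what RU486 changed in cultures that also received corticosterone. Averaged over the times, 10 of the 44 members changed at an adjusted p under 0.05 in limma, 6 higher and 4 lower with RU486. This is 22.7% of the members, beside 12.9% of all genes tested, of which 7.35% were higher and 5.5% lower. The list did not move as a whole, since the median log2 change was 0.00 over the members and 0.01 over all genes. Replication genes contributed Mcm6, Rrm1 and Fen1 as higher and Cdt1 as lower. G2/M genes contributed Mki67, Ccnb1 and Bub1b as higher and Plk1, Cdc20 and Cenpa as lower. None of the 13 G1/S control genes was called in limma, and 1 had an unadjusted p under 0.05. Here and below, every share of all genes is at the adjusted threshold. Counts of members at an unadjusted p have no such share beside them and cannot be compared with it. With the 2 arrays left out, 22 of 44 members were called (50.0%), 13 higher and 9 lower, beside 31.2% of all genes (15.7% higher and 15.5% lower), and all 10 were again among them.

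Rrm1, the large subunit of ribonucleotide reductase, separated corticosterone from both compounds, while its vehicle and RU486 arrays overlapped these groups. Its log2 intensity ran from 10.53 to 10.83 (median 10.59) on the 9 corticosterone arrays and from 10.86 to 11.40 (median 10.93) on the 9 arrays with both compounds. The groups did not overlap, with all arrays or without the 2. At 2 h the corticosterone arrays read 10.58, 10.83 and 10.57, and those with both compounds 11.23, 11.01 and 10.93. The mean difference over the times was 0.39 (SE 0.08, limma adjusted p = 0.000959), and without the 2 arrays 0.34 (SE 0.05, adjusted p = 1.66e-05). At 6 h alone it was 0.51 (SE 0.13, adjusted p = 0.0493), a call that was kept in 7 of 36 fits leaving out 1 array each, while the call for the mean of the times was kept in all 36. A dimmer probe of Rrm1 gave 0.23 (adjusted p = 0.587), and 0.30 without the 2 arrays (adjusted p = 0.0026). The third gave -0.01.

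Mcm6, a subunit of the replicative helicase, had the largest difference of the members. It ran from 10.23 to 10.80 (median 10.62) with corticosterone and from 10.47 to 11.64 (median 11.45) with both compounds. The low value of 10.47 is the array that stood apart, and without it the range with both compounds began at 10.94, so that the groups no longer overlapped. The difference was 0.80 (SE 0.22, limma adjusted p = 0.0153), and 0.91 (SE 0.14, adjusted p = 2.45e-05) without the 2 arrays. The other Mcm6 probes did not all follow. A probe of nearly the same brightness gave -0.18 (adjusted p = 0.444), and another gave 0.13 (adjusted p = 0.902), or 0.41 (adjusted p = 0.000693) without the 2 arrays. The change of Mcm6 thus depends on the probe read. Fen1, the nuclease that trims Okazaki fragments, differed by 0.34 (SE 0.09, adjusted p = 0.00746), with 10.32 to 10.86 on the corticosterone arrays and 10.65 to 11.20 with both compounds, and by 0.29 without the 2 arrays.

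Mki67, which encodes the proliferation marker Ki-67, ran from 10.21 to 10.84 (median 10.52) with corticosterone and from 10.82 to 11.02 (median 10.97) with both. The ranges overlapped slightly, since 2 corticosterone arrays at 6 h, at 10.84 and 10.83, read above the lowest array with both. At 4 h, the arrays with both compounds read 10.99, 10.97 and 10.97 and those with corticosterone 10.21, 10.52 and 10.51. The mean difference was 0.39 (SE 0.10, limma adjusted p = 0.00814) with all arrays and 0.39 (SE 0.08, adjusted p = 0.000372) without the 2. A dim Mki67 probe gave 0.18 (adjusted p = 0.35), and 0.25 (adjusted p = 0.0123) without the 2 arrays. Smaller differences were those of Ccnb1 (cyclin B1) at 0.28 (SE 0.09, adjusted p = 0.0458) and the spindle checkpoint gene Bub1b at 0.20 (SE 0.06, adjusted p = 0.0393). These calls were kept in 16 and 24 of 36 fits leaving out 1 array, respectively, and the differences were 0.26 and 0.18 without the 2 arrays. With all arrays, the dimmer probes of Ccnb1 and Bub1b gave 0.17 (limma adjusted p = 0.276) and -0.01 (adjusted p = 0.98).

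Plk1 and Cdc20, a mitotic kinase and the activator of the anaphase-promoting complex, were lower when RU486 was added. Plk1 ran from 10.96 to 11.66 (median 11.14) with corticosterone and from 10.38 to 10.86 (median 10.50) with both compounds, without overlap. The difference was -0.68 (SE 0.19, limma adjusted p = 0.0142), and -0.71 (SE 0.15, adjusted p = 0.000675) without the 2 arrays. On the vehicle arrays at 2 h Plk1 read 11.71, 10.57 and 10.07, so the spread there exceeded the difference, and replicate 1 stood above every corticosterone array.

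Cdc20 ran from 11.02 to 11.73 (median 11.45) with corticosterone and from 10.74 to 11.38 (median 10.85) with both. The ranges overlapped, while at 4 h they did not, with 11.69, 11.53 and 11.45 against 10.74, 10.81 and 10.78. The mean difference was -0.50 (SE 0.12, limma adjusted p = 0.0048), or -0.56 without the 2 arrays, and at 4 h it was -0.78 (SE 0.21, adjusted p = 0.0322). The call at 4 h was kept in 30 of 36 fits leaving out 1 array. Of 3 dimmer Cdc20 probes, 1 gave -0.76 (adjusted p = 0.0427) and the others -0.33 (adjusted p = 0.636) and -0.05 (adjusted p = 0.945). These were -0.62, -0.12 and 0.03 without the 2 arrays. Cdt1, a helicase loader, differed by -0.35 (SE 0.10, adjusted p = 0.0169) and the centromeric histone Cenpa by -0.20 (SE 0.06, adjusted p = 0.0372), the latter kept in 25 of 36 such fits. Leaving out the 2 arrays gave -0.40 and -0.19. Promoter elements occurred on both sides. A CHR match lay at 3 of the 6 genes that were higher (Bub1b, Fen1, Mki67) and at 3 of the 4 that were lower (Cdc20, Cenpa, Plk1), and an E2F match at Mcm6 and at Cdt1.

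**Figure D2:**
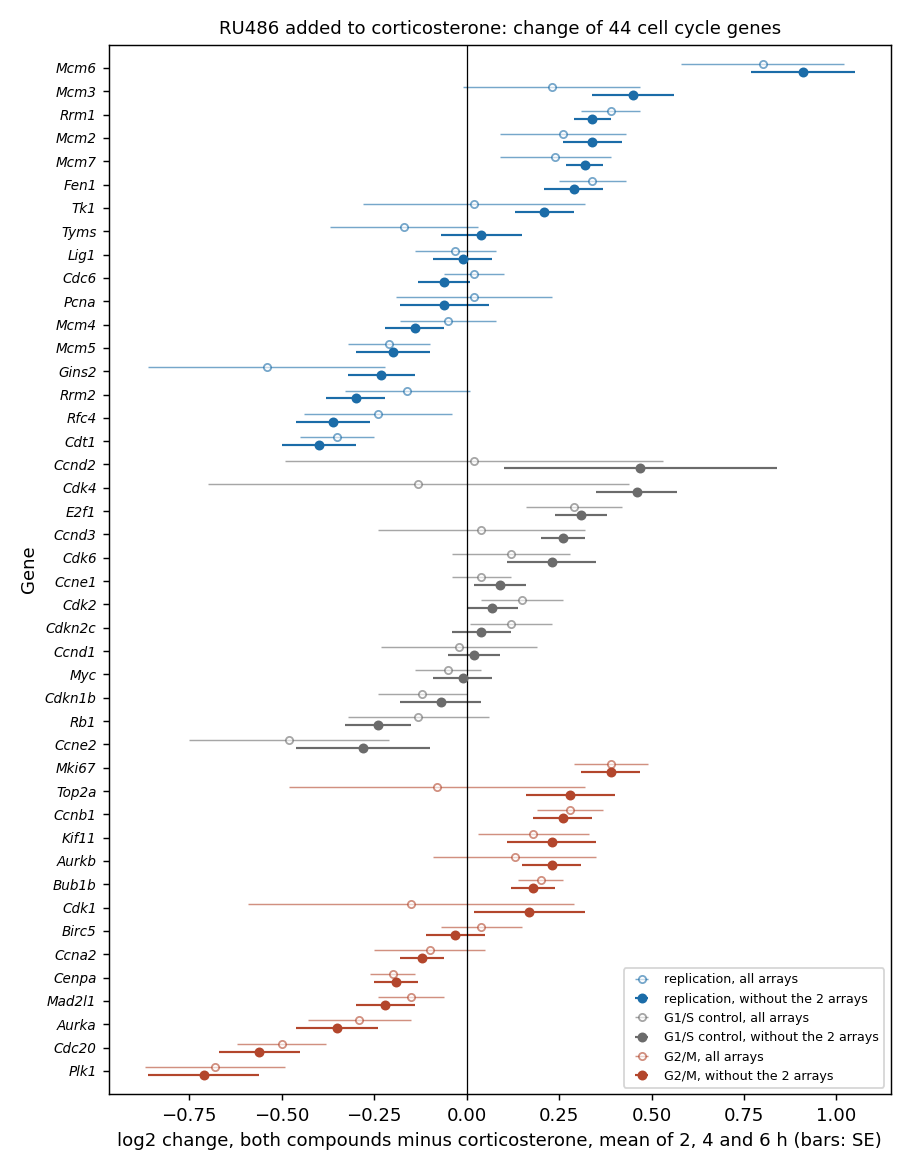
log2 change (both compounds minus corticosterone, mean of 2, 4 and 6 h) of the 44 tested members, grouped by list, with open circles for all arrays, filled circles without the 2 arrays that stood apart, and bars of 1 SE. Mcm6 reaches 0.80 at the upper end and Plk1 -0.68 at the lower end, and both directions occur within the replication and the G2/M lists.

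**Figure D3:**
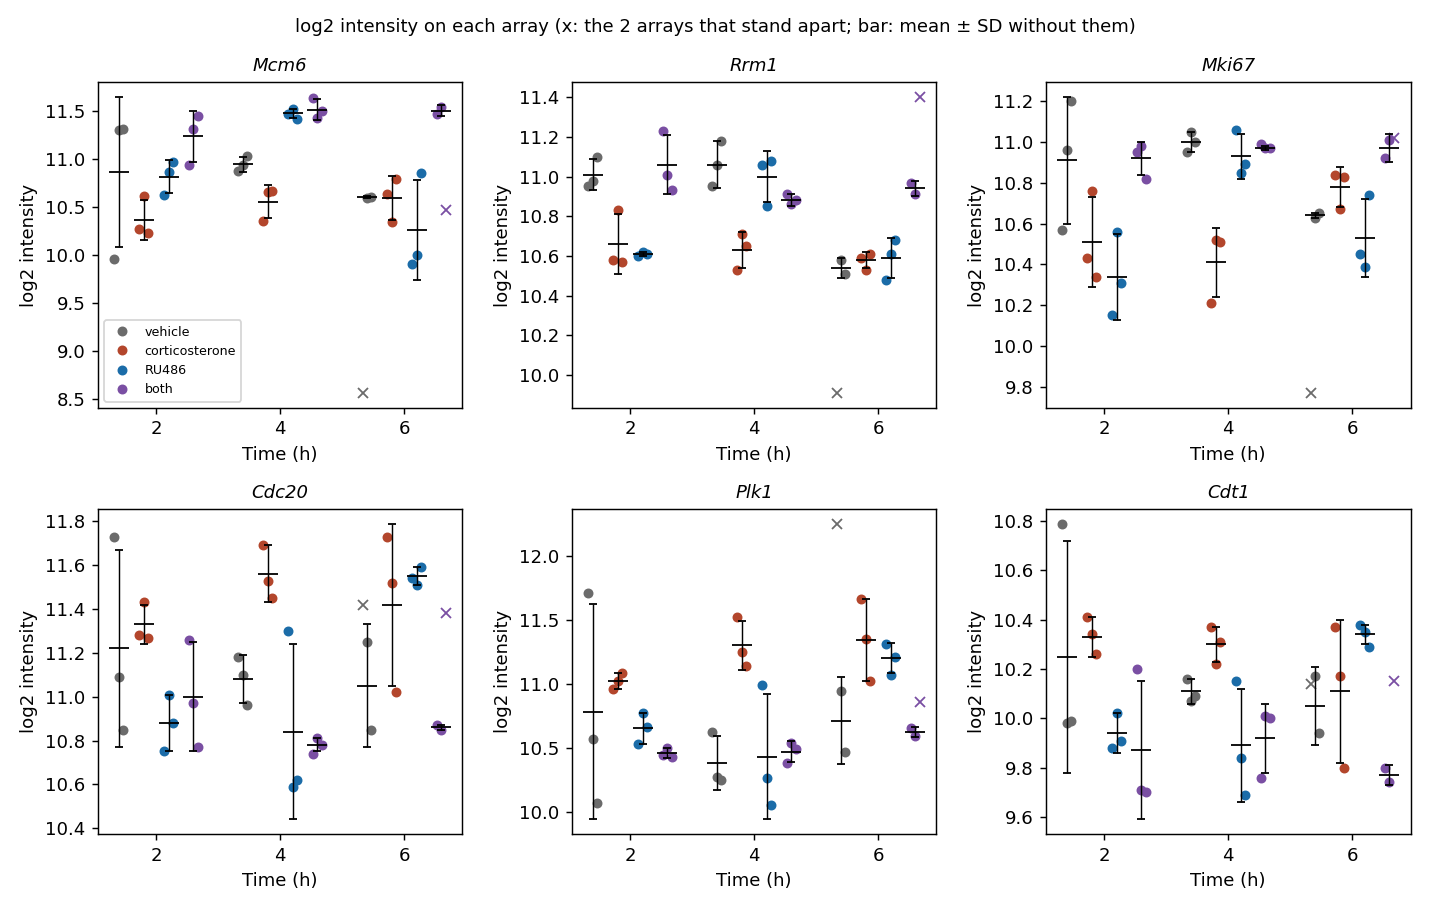
log2 intensity of 6 members on each of the 36 arrays, by time and treatment, with crosses for the 2 arrays that stood apart and bars for the mean ± SD without them. Rrm1 and Plk1 separate corticosterone from both compounds at every time, and the vehicle arrays at 2 h are widely spread for Plk1, Cdc20 and Mcm6.

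Leaving out the 2 arrays added 12 members to the called list. Further helicase genes rose with RU486, with Mcm3 at 0.45 (SE 0.11, limma adjusted p = 0.00178), Mcm2 at 0.34 (SE 0.08, adjusted p = 0.00136) and Mcm7 at 0.32 (SE 0.05, adjusted p = 3.19e-05). In the G1/S control list, Cdk4 was higher by 0.46, E2f1 by 0.31 and Ccnd3 by 0.26, and Rb1, the retinoblastoma gene, was lower, at -0.24. For Cdk4 and Rb1 the direction depends on the probe read. With every probe tested separately and the 2 arrays left out, the dimmer Cdk4 probe gave -0.94 (adjusted p = 0.000575) and the dimmer Rb1 probe 0.24 (adjusted p = 0.0477), both opposite to the probe used. For Cdk4 the array that stood apart decided the value. With all arrays its difference was -0.13 (SE 0.57), because the arrays with both compounds at 6 h read 11.82, 11.76 and 6.50. Aurkb, a mitotic kinase, was higher by 0.23. The clamp-loader gene Rfc4 (-0.36), the small reductase subunit Rrm2 (-0.30), the mitotic kinase Aurka (-0.35) and the checkpoint gene Mad2l1 (-0.22) were lower. The subunits of ribonucleotide reductase thus differed in opposite directions, Rrm1 up and Rrm2 down.

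The same contrast was read in further cell cycle genes. Of 31 other replication genes tested, 3 were higher and 4 lower with RU486 added, led by Dbf4 (an activator of the origin-firing kinase, 0.54), Dut (which removes dUTP, 0.53) and Brca1 (0.33) on one side and Rfc5 (-0.54), Chaf1b (-0.49) and Pold1 (-0.44) on the other. Of 26 other mitosis genes, 2 were higher (Foxm1, a transcription factor for G2/M genes, 0.37, and Kif4, 0.31) and 1 was lower (Cdca8, -0.53). Of 25 other regulators, E2f4 (0.87) and Trp53 (0.77) were higher, and Gadd45g (-0.70) and the Cdk inhibitor gene Cdkn1c (-0.63) were lower. All these were called in limma with all arrays, with adjusted p between 2.82e-07 and 0.0365, where 7.35% of all genes were higher and 5.5% lower. The balance changed without the 2 arrays, where 15.7% of all genes were higher and 15.5% lower. There, 4 other replication genes were higher and 11 lower, 4 mitosis genes higher and 5 lower, and 5 regulators higher and 6 lower. As a check of the treatment, Fam107a, Fkbp5, Tsc22d3, Sgk1 and Per1, which glucocorticoids induce, were all lower with RU486 added, with a median change of -1.85.

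Some cell type markers also differed in this contrast. Among astrocyte markers, 1 of 7 was higher (Gfap, 1.52) and 1 was lower (Glul, -0.60). Of 4 neuronal markers 1 was higher (Stmn2, 0.42) and of 6 microglial markers 1 was higher (Csf1r, 0.51), while 0 of 7 oligodendrocyte lineage, 0 of 5 endothelial and 0 of 5 fibroblast markers were called in limma with all arrays. Leaving out the 2 arrays kept these calls (Gfap 1.79, Glul -0.68, Stmn2 0.35, Csf1r 0.49) and added the astrocyte markers Slc1a2 (-0.28) and Slc1a3 (-0.17), the neuronal marker Syt1 (-0.21) and the fibroblast marker Col1a1 (0.66). The summed microglial markers ranged from 10.15 to 11.08 (log2) with corticosterone and from 10.34 to 10.82 with both. The summed neuronal markers ranged from 12.74 to 12.97 with corticosterone and from 12.83 to 13.66 with both, or to 13.2 without the 2 arrays. The part of these cell types in the changes of the members was not tested.

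At single times, limma called fewer members in this contrast. With all arrays these were 0 at 2 h (7 with an unadjusted p under 0.05), beside 0.782% of all genes, Cdc20 at 4 h, beside 3.15%, and Rrm1 at 6 h, beside 1.4%. The 34 arrays gave 4 at 2 h, beside 10.3% of all genes, namely Mcm6 (0.86), Tk1 (0.45), Mki67 (0.41) and Rrm1 (0.40). They gave 13 at 4 h, beside 18.2%, of which Mcm6 (0.96) and Mki67 (0.56) were the highest and Plk1 (-0.84) and Cdc20 (-0.78) the lowest. At 6 h they gave Mcm7 (0.43) and Rrm1 (0.36), beside 4.47%.

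The second comparison asks what corticosterone alone did. With all arrays, limma called 0 of the 44 members for the mean of the times, beside 2.96% of all genes, and 8 members had an unadjusted p under 0.05. With array weights 12 members were called, a fit for which no share over all genes is given. On the 34 arrays 6 were called (13.6%), beside 12.4% of all genes. These were Mcm3 (-0.46, SE 0.11), Mcm2 (-0.40, SE 0.08), Mki67 (-0.29, SE 0.08) and Rrm1 (-0.25, SE 0.05), which were lower with corticosterone, and Plk1 (0.60, SE 0.15) and Aurka (0.44, SE 0.11), which were higher. Adjusted p ran from 0.000821 to 0.015. The median over the members was 0.01 without the 2 arrays and 0.10 with all arrays. These counts read 1 probe per gene. With every probe tested separately, a dimmer Ccnd2 probe was called as lower with all arrays, at -0.83 (limma adjusted p = 0.032). It also gave -0.83 without the 2 arrays (adjusted p = 0.0075). With all arrays the Ccnd2 probe used gave -0.14 (adjusted p = 0.919), and the remaining ones -0.18 and -0.03.

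At 4 h, the same fit without the 2 arrays gave 3 lower members (Mcm2 -0.65, Mki67 -0.59 and Rrm1 -0.44) and 3 higher ones (Plk1 0.92, Aurka 0.64 and Mad2l1 0.42). Beside these 13.6%, 8.83% of all genes were called. The arrays show this for Mcm2, which read 10.08, 10.28 and 10.11 with vehicle and 9.52, 9.48 and 9.50 with corticosterone. At 2, 4 and 6 h with all arrays, 4, 7 and 13 members had an unadjusted p under 0.05. These counts have no share of all genes beside them and do not show that members changed more. The 6 h count includes vehicle 6 h replicate 1, which stood apart. At the adjusted threshold limma called 0 members at these times, beside 0.121%, 0.829% and 1.01% of all genes. On the 34 arrays it called 0 at 2 and 6 h, beside 0.676% and 1.56%. Whether the effects at the times differed was tested too. With all arrays, 0 to 21 members had an unadjusted p under 0.05 for a difference between times, again without a share of all genes. At the adjusted threshold limma called 0 members for any such difference, beside 0% to 0.0581% of all genes. Without the 2 arrays it called 2, Mcm7 (0.51) and Aurkb (0.79), both for the RU486 effect at 4 h against that at 2 h, beside 0.628% of all genes. Of the other regulators, Cdkn1c (0.65, adjusted p = 0.0455) and Gadd45g (0.61, adjusted p = 3.5e-06) rose with corticosterone and E2f4 fell (-0.72, adjusted p = 0.0185) with all arrays. With the 2 arrays left out, where 12.4% of all genes were called, 4 regulators rose, among them Cdkn1c (0.78), Gadd45g (0.67) and the Cdk inhibitor gene Cdkn1a (0.38), and 4 fell, among them E2f4 (-0.54), Trp53 (-0.52) and Gadd45b (-0.36). The corticosterone arrays also serve as the reference of the comparison above, so the values stand side by side and are not independent.

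The next comparison sets RU486 alone against vehicle. With all arrays limma called 0 of 44 for the mean of the times, beside 0.0739% of all genes, and 3 had an unadjusted p under 0.05. Array weights gave 6, again with no share over all genes given. Leaving out the 2 arrays gave 1, the D-type cyclin gene Ccnd3 (0.27, SE 0.06, adjusted p = 0.0287), beside 1.49% of all genes. At 4 and 6 h with all arrays, 1 and 16 members had an unadjusted p under 0.05. These counts have no share of all genes beside them and do not show that members changed more. The 6 h count includes vehicle 6 h replicate 1, which stood apart. At the adjusted threshold limma called 0 members at these times, beside 0.00528% and 0% of all genes. The fit to the 34 arrays called Ccnd3 at 4 h (0.66), beside 4.01% of all genes. At 2 h, 37 of the 44 members had a negative difference, with a median of -0.28 against 0.03 over all genes, although limma called 0 with all arrays and 3 had an unadjusted p under 0.05. On the 34 arrays 7 were lower at 2 h (15.9%, beside 3.19% of all genes), namely Mcm2, Mcm3, Rrm1, Gins2, Aurkb, Top2a and Mki67. Leaving out RU486 2 h replicate 1 as well ended all 7 calls, with 0 members called. The differences kept their sign, with Rrm1 at -0.40 in both fits, Mki67 at -0.57 and then -0.47, Mcm2 at -0.57 and then -0.53, and Top2a at -0.74 and then -0.34. That array was the lowest of the 34 for all 3 lists. Mki67 read 10.15 on it, 10.56 and 10.31 on the other RU486 arrays, and 10.57, 10.96 and 11.20 on the vehicle arrays at 2 h.

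With both compounds against vehicle, limma called 0 of 44 members for the mean of the times (8 with an unadjusted p under 0.05), beside 0.512% of all genes. In the fit to the 34 arrays 4 were higher (9.09%, beside 6.51% of all genes), namely Mcm6 (0.61, SE 0.15, adjusted p = 0.0172), Ccnd3 (0.36, SE 0.07, adjusted p = 0.00283), the thymidine kinase gene Tk1 (0.30, SE 0.09, adjusted p = 0.0405) and Mcm7 (0.23, SE 0.05, adjusted p = 0.016). At 6 h, Rrm1 was called as higher (0.76, SE 0.13, adjusted p = 0.0322), the only member called there, beside 0.0422% of all genes. This call rests on the arrays that stood apart, since Rrm1 read 9.91 on vehicle 6 h replicate 1 and 11.40 on the array with both compounds, and without them the difference was 0.40 (SE 0.11, adjusted p = 0.224).

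The interaction asks whether the corticosterone effect differed when RU486 was present. For the mean of the times, Rrm1 (0.46, SE 0.11, limma adjusted p = 0.0104) and Mki67 (0.55, SE 0.14, adjusted p = 0.018) were called, 2 of 44 members (4.55%), beside 5.97% of all genes. Other tested probes of these genes were not called with all arrays. Those of Rrm1 gave 0.34 (adjusted p = 0.558) and 0.10 (adjusted p = 0.651), and a dim Mki67 probe 0.13 (adjusted p = 0.704). Without the 2 arrays they gave 0.68 (adjusted p = 5.92e-05), 0.12 (adjusted p = 0.462) and 0.28 (adjusted p = 0.0616). Rrm1 was -0.18 with corticosterone alone, -0.07 with RU486 alone and 0.21 with both, each against vehicle. For Mki67 these differences were -0.19, -0.15 and 0.20. None of these 6 differences was itself called with all arrays. Without the 2 arrays they were -0.25, -0.14 and 0.09 for Rrm1 and -0.29, -0.25 and 0.10 for Mki67, and only the corticosterone difference of each gene was called (adjusted p = 0.00162 and 0.015). The Rrm1 medians were then 10.92 with both compounds and 10.96 with vehicle. For the interaction, 16 members were then called (36.4%, beside 20.5% of all genes), 11 higher and 5 lower. The higher ones included Mcm6 (0.87), Mcm3 (0.71), Mki67 (0.64), Mcm2 (0.61) and Rrm1 (0.48), and the lower ones Plk1 (-0.84), Cdc20 (-0.53), Aurka (-0.48), Rfc4 (-0.46) and Mad2l1 (-0.31).

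The last comparison is between times, averaged over the 4 treatments, with all arrays unless stated. Time in culture after treatment, and any batch that went with a time, cannot be told apart. From 2 to 4 h, 5 members rose and 2 fell, or 15.9% of the 44, beside 37.7% of all genes (19.1% higher and 18.6% lower). From 2 to 6 h, 8 rose and 8 fell (36.4%), beside 45.5% of all genes (25.7% higher and 19.9% lower). From the 34 arrays 22 members were called at 4 h, 13 higher and 9 lower, beside 61.6% of all genes (29.4% and 32.2%), and 20 at 6 h, 10 in each direction, beside 58.4% (27.1% and 31.3%). The G2/M list had 3 genes that rose and 0 that fell at 6 h, the replication list 4 and 5, and the G1/S control list 1 and 3. Between 4 and 6 h limma called 0 members, beside 0.0317% of all genes, and 8 had an unadjusted p under 0.05. On the 34 arrays it called 1, Rrm1 (-0.23), beside 0.359%.

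Mcm7 read 8.85 to 9.35 (median 9.19) on the 12 arrays at 2 h and 9.63 to 10.10 (median 9.90) on the 12 arrays at 4 h, without overlap. It rose by 0.75 (SE 0.13, limma adjusted p = 7.62e-05) by 4 h and by 0.52 (SE 0.13, adjusted p = 0.00214) by 6 h, or by 0.72 (SE 0.05) at 6 h without the 2 arrays. A dimmer Mcm7 probe gave -0.23 (adjusted p = 0.463) for 6 h against 2 h. Rfc4 rose by 0.72 (SE 0.18, adjusted p = 0.0024) and then 0.88 (SE 0.18, adjusted p = 0.00028). A dimmer Rfc4 probe gave 0.09 (adjusted p = 0.713) at 4 h and 0.43 (adjusted p = 0.0348) at 6 h. Without the 2 arrays it gave 0.17 (adjusted p = 0.0515) at 6 h. The sliding clamp gene Pcna and Rrm2 rose by 6 h, by 0.66 (SE 0.18) and 0.49 (SE 0.15), and without the 2 arrays by 0.42 and 0.26, still called. Dimmer Rrm2 probes did not follow, at 0.26 (limma adjusted p = 0.199) and -0.05 (adjusted p = 0.65) with all arrays. Without the 2 arrays these were 0.03 and -0.06.

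Other replication genes fell over the same hours. Mcm2 fell by 6 h, at -0.54 (SE 0.15, adjusted p = 0.00466), Mcm3 at -0.62 (SE 0.21, adjusted p = 0.0171) and Mcm5 at -0.37 (SE 0.10, adjusted p = 0.00349). Without the 2 arrays these were -0.31, -0.28 and -0.29, still called, so that the values for Mcm2 and Mcm3 moved by more than 1.5 times. On the probes used, the helicase genes did not move together, with Mcm7 up and Mcm2, Mcm3 and Mcm5 down. Probes of 1 gene could differ as much. The Mcm6 probe used gave -0.34 (limma adjusted p = 0.15) with all arrays. Its other probes gave 0.69 (adjusted p = 7.91e-06), -0.65 (adjusted p = 0.0809) and 0.12 (adjusted p = 0.19). Fen1 (-0.22) and Rrm1 (-0.19) fell as well. For Rrm1 the direction depends on the probe read. A second probe of nearly the same brightness gave -0.08 (limma adjusted p = 0.728). Without the 2 arrays it gave 0.18 (adjusted p = 0.024), where the probe used gave -0.17.

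Among G2/M genes, Ccnb1 ran from 10.34 to 11.01 (median 10.69) at 2 h and from 10.65 to 11.30 (median 11.05) at 4 h, with overlap. It rose by 0.38 at 4 h (SE 0.08, limma adjusted p = 0.000611) and by 0.38 at 6 h (SE 0.08, adjusted p = 0.000439), and its second probe rose by 0.76 at both times. Mad2l1 rose by 0.39 at 6 h (SE 0.08, adjusted p = 0.000251) and its second probe by 0.94. Bub1b rose by 0.16, while its second probe gave 0.06 (adjusted p = 0.707). Without the 2 arrays, Aurkb (0.35), Cdk1 (0.34) and Top2a (0.33), which encodes the topoisomerase that untangles sister chromatids, joined them, so that 6 of 14 rose and 0 fell, beside 27.1% of all genes higher and 31.3% lower. These counts read 1 probe per gene. Dimmer Cdk1 probes gave 0.05 and -0.19 there, the latter called the opposite way (limma adjusted p = 0.00762). Those of Top2a gave 0.33 (adjusted p = 0.0201) and -0.15 (adjusted p = 0.0966).

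In the G1/S control list, Cdkn1b fell at 4 h (-0.32, SE 0.10, limma adjusted p = 0.0156) and at 6 h (-0.33, SE 0.10, adjusted p = 0.01). Ccnd2 (-1.11), Cdk6 (-0.35) and Cdk2 (0.24) were called at 6 h with all arrays but not without the 2, where they stood at -0.54, -0.17 and 0.11. Ccnd2 varied widely within groups, with 9.88, 13.63 and 13.57 on the arrays with both compounds at 2 h. Its dimmer probes gave -0.95 (limma adjusted p = 0.0635), 0.17 (adjusted p = 0.477) and 0.27 (adjusted p = 0.00014) at 6 h with all arrays. E2f1 (-0.36), Ccnd1 (-0.15) and Ccnd3 (-0.15) fell at 6 h on the 34 arrays. For Ccnd3 the direction depends on the probe read, since dimmer probes gave 0.21 (limma adjusted p = 0.00109) and -0.32 (adjusted p = 0.131) there. Of the further genes read, 10 of 31 replication genes rose and 1 fell by 6 h, and 9 of 26 mitosis genes rose and 2 fell, led by the spindle factor gene Tpx2 (1.01). Of 25 regulators 6 rose, led by Ccng2 (1.29), and 5 fell. Of all genes, 25.7% rose and 19.9% fell. Without the 2 arrays, the counts were 11 higher and 7 lower for the replication genes, 11 and 1 for the mitosis genes and 8 and 8 for the regulators, beside 27.1% and 31.3% of all genes.

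**Figure D4:**
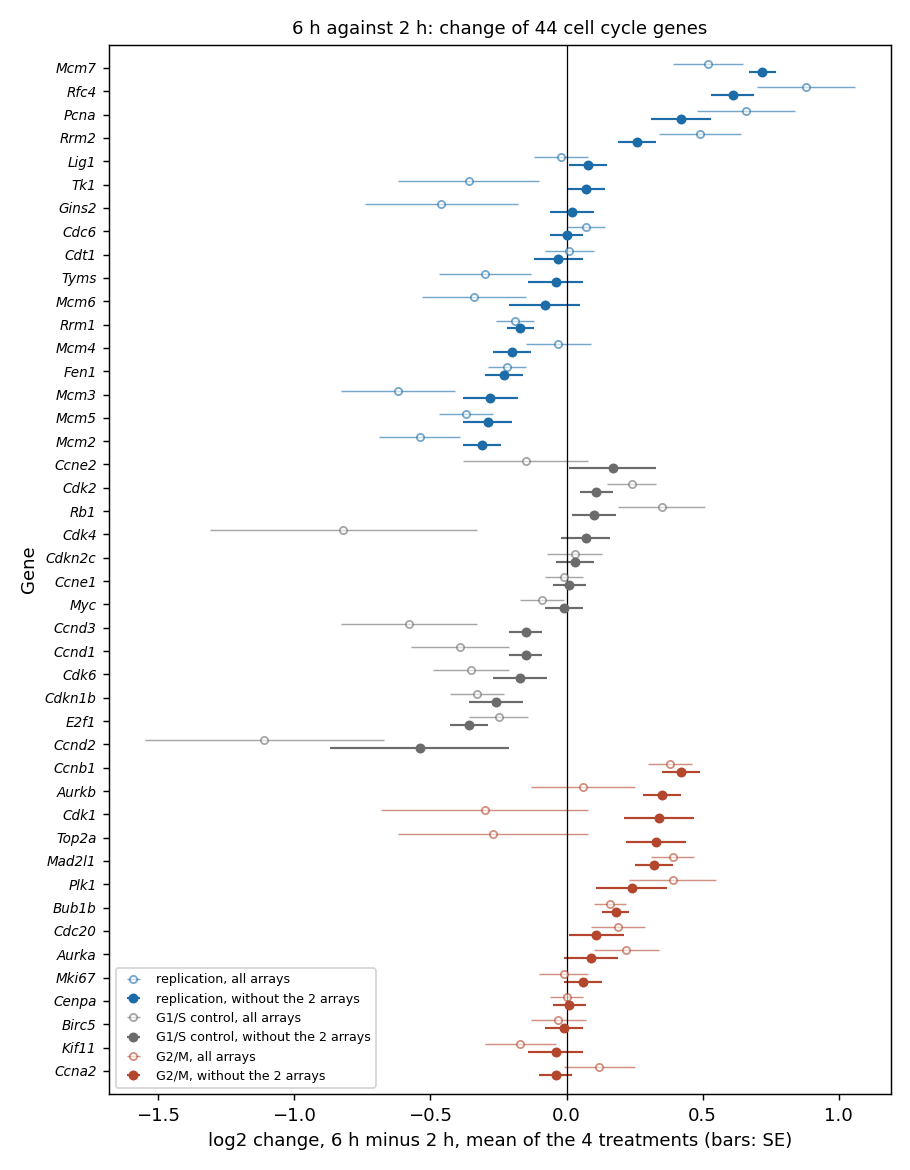
log2 change (6 h minus 2 h, mean of the 4 treatments) of the 44 tested members by list, with open circles for all arrays, filled circles without the 2 arrays that stood apart, and bars of 1 SE. Mcm7 (0.52) and Rfc4 (0.88) lie to the right and Mcm2 (-0.54) to the left with all arrays, and the open and filled circles part most for Cdk4, Top2a and Cdk1, which were not called with all arrays.

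In vehicle alone, limma's F test over the times called 5 of 44 members (11.4%), beside 10.5% of all genes. These were Rrm1, Mki67, Mcm2, Mcm5 and Fen1, and Rrm1 had the lowest adjusted p, 0.0018. Its vehicle arrays read 10.95, 10.98 and 11.10 at 2 h, 10.95, 11.06 and 11.18 at 4 h, and 9.91, 10.58 and 10.51 at 6 h, so that all 3 arrays at 6 h lay below those at 2 and 4 h. On the 34 arrays 6 members were called, beside 16.5% of all genes. Of these members Rrm1 and Fen1 were shared with the first list, and the others were Mcm7, Ccnd3, E2f1 and Rb1.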

How the data were processed

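The deposited table holds linear intensities of 45281 probes. From the values, its columns had been quantile-normalized: sorted columns differ by at most 1.15%, and array medians lie between 110.5 and 111.2. Per the submitters' processing notes, GenomeStudio was used. A further table has 72 columns of per-sample values that match no label, and those were not used. Probe identifiers and gene symbols were read from it.

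Deposited intensities were converted to log2 here. A filter kept the 28397 probes brighter than the array median on 3 or more arrays, and each gene was read from its brightest probe. Names were updated through RefSeq synonyms (GRCm38.p6): 11021 of 18936 names were current, 3416 were updated and 4499 were kept. A model of 12 group means without covariate was fitted with lmFit and eBayes (limma 3.58.1, R 4.3.3), and p-values were adjusted over all genes by Benjamini-Hochberg within each comparison. The procedure was also run on simulated data with noise drawn independently for each gene, unlike the members, which varied together. Its outcome is not given here, and no result rests on it. The members, lists and tests were chosen with earlier results of these data known. Named per comparison are the members called or, in several comparisons, only some of them. For other genes of the pathway at most the 3 largest called per direction are named. A member left unnamed in a comparison may thus have been called. Other members are named with values chosen after they were seen. Replicate numbers are shared by the groups, and the labels do not say whether they pair samples. The main fit did not use them as pairs. The median correlation of deviations was 0.05 for the same number and -0.01 for different numbers, and 77 of 198 pairs of the same number exceeded 0.1. A weak median correlation cannot exclude pairing. The number of arrays limits the precision. Plots were drawn with matplotlib 3.10.9.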

Additional observations from a re-analysis of the deposited data

Results flagged for a closer look

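For 2 members the corticosterone effect differed by the presence of RU486, by the test of that difference itself (the interaction, mean of the times). These are 4.55% of the 44 members tested, beside 5.97% of all genes called in the same test, a share no higher than the background. For Rrm1 the interaction was 0.46 (limma adjusted p = 0.0104), kept in 36 of 36 fits leaving out 1 array, and 0.48 without the 2 arrays that stood apart. For Mki67 it was 0.55 (limma adjusted p = 0.018), and 0.64 without those arrays. With all arrays, the other tested probes were called for neither gene, at 0.34 and 0.10 for Rrm1 and 0.13 for Mki67.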

How the results depend on the processing

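Here "both" stands for corticosterone with RU486. The counts in this section are of members only. No share over all genes is given beside them, so they do not show whether members changed more than other genes. Shares for all arrays and for the 34 arrays stand with the comparisons above. Without the 2 arrays that stood apart, the number of members called became 6 for corticosterone against vehicle, 4 h (from 0), 6 for corticosterone against vehicle, mean of the times (from 0), 7 for RU486 against vehicle, 2 h (from 0) and 1 for RU486 against vehicle, 4 h (from 0). It was 1 for RU486 against vehicle, mean of the times (from 0), 1 for both against vehicle, 4 h (from 0), 0 for both against vehicle, 6 h (from 1) and 4 for both against vehicle, mean of the times (from 0). It was 4 for both against corticosterone, 2 h (from 0), 13 for both against corticosterone, 4 h (from 1), 2 for both against corticosterone, 6 h (from 1) and 22 for both against corticosterone, mean of the times (from 10). It was 16 for the interaction of corticosterone and RU486, mean of the times (from 2), 22 for 4 h minus 2 h (from 7) and 1 for 6 h minus 4 h (from 0). With array weights it became 17 for corticosterone against vehicle, 4 h (from 0), 6 for corticosterone against vehicle, 6 h (from 0), 12 for corticosterone against vehicle, mean of the times (from 0) and 3 for RU486 against vehicle, 2 h (from 0). It was 21 for RU486 against vehicle, 4 h (from 0), 2 for RU486 against vehicle, 6 h (from 0), 6 for RU486 against vehicle, mean of the times (from 0) and 20 for both against vehicle, 4 h (from 0). It was 11 for both against vehicle, 6 h (from 1), 12 for both against vehicle, mean of the times (from 0), 6 for both against corticosterone, 2 h (from 0) and 27 for both against corticosterone, 4 h (from 1). It was 22 for both against corticosterone, 6 h (from 1), 31 for both against corticosterone, mean of the times (from 10), 21 for the interaction of corticosterone and RU486, mean of the times (from 2) and 25 for 4 h minus 2 h (from 7). It was 10 for 6 h minus 4 h (from 0) and 13 for vehicle over time, F test (from 5). With only the compared groups in the fit it became 11 for corticosterone against vehicle, 4 h (from 0), 3 for RU486 against vehicle, 4 h (from 0), 13 for both against vehicle, 4 h (from 0) and 0 for both against vehicle, 6 h (from 1). It was 2 for both against corticosterone, 2 h (from 0), 24 for both against corticosterone, 4 h (from 1), 0 for both against corticosterone, 6 h (from 1) and 19 for 4 h minus 2 h (from 7). It was 10 for 6 h minus 2 h (from 16) and 0 for vehicle over time, F test (from 5). With every probe tested separately it became 1 for corticosterone against vehicle, mean of the times (from 0), 0 for both against corticosterone, 6 h (from 1), 5 for the interaction of corticosterone and RU486, mean of the times (from 2) and 14 for 4 h minus 2 h (from 7). It was 25 for 6 h minus 2 h (from 16) and 10 for vehicle over time, F test (from 5). Without the brightness filter it became 0 for both against corticosterone, 6 h (from 1). With normexp (offset 50) it became 0 for both against corticosterone, 6 h (from 1). In an alternative chosen after seeing the data, which also left out RU486 2 h replicate 1, it became 1 for corticosterone against vehicle, 2 h (from 0), 7 for corticosterone against vehicle, 4 h (from 0), 1 for corticosterone against vehicle, 6 h (from 0) and 8 for corticosterone against vehicle, mean of the times (from 0). It was 1 for RU486 against vehicle, 4 h (from 0), 1 for both against vehicle, 4 h (from 0), 0 for both against vehicle, 6 h (from 1) and 4 for both against vehicle, mean of the times (from 0). It was 10 for both against corticosterone, 2 h (from 0), 16 for both against corticosterone, 4 h (from 1), 5 for both against corticosterone, 6 h (from 1) and 25 for both against corticosterone, mean of the times (from 10). It was 15 for the interaction of corticosterone and RU486, mean of the times (from 2), 22 for 4 h minus 2 h (from 7), 1 for 6 h minus 4 h (from 0) and 9 for vehicle over time, F test (from 5). Leaving out 1 array at a time gave 0 to 4 for corticosterone against vehicle, 4 h, 0 to 16 for corticosterone against vehicle, 6 h, 0 to 5 for corticosterone against vehicle, mean of the times and 0 to 16 for RU486 against vehicle, 6 h. Such fits gave 0 to 9 for both against vehicle, 6 h, 0 to 1 for both against vehicle, mean of the times, 0 to 1 for both against corticosterone, 2 h and 0 to 6 for both against corticosterone, 4 h. Such fits gave 0 to 1 for both against corticosterone, 6 h, 7 to 12 for both against corticosterone, mean of the times, 2 to 6 for the interaction of corticosterone and RU486, mean of the times and 5 to 17 for 4 h minus 2 h. Such fits gave 13 to 21 for 6 h minus 2 h and 1 to 26 for vehicle over time, F test. It gave 0 in all 36 fits for corticosterone against vehicle, 2 h, RU486 against vehicle, 2 h, RU486 against vehicle, 4 h, RU486 against vehicle, mean of the times, both against vehicle, 2 h, both against vehicle, 4 h and 6 h minus 4 h. The fit with the replicate number as a block called 2 members for both against corticosterone, 4 h (from 1), and ended 1 of 38 gene calls, that of Mad2l1 at 4 h against 2 h. Whether the numbers pair samples is not stated by the labels. No gene call changed its direction in the fits that read the same probe. With every probe tested separately, a dimmer Ccnd2 probe was called the opposite way for 6 h minus 2 h. It gave 0.27 (limma adjusted p = 0.00014), beside -1.11 for the probe used. Of the 38 gene calls, 34 were kept without the 2 arrays, 36 with array weights, 36 without the filter, 37 with normexp and 30 with only the compared groups. The cause of these changes was not tested. The bead chip as a block was not run, since the columns that name chips match no label. With 3 arrays a group, and 2 arrays far from the rest, the spread used in every test depends on whether these are kept.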
